A study of Mus musculus with 5 samples.

Results

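The transcripts of 10 integrin subunits, 6 of them best known on leukocytes and 4 known as receptors for the extracellular matrix, were examined in bone marrow–derived macrophages (BMDMs) that had shared a culture with breast cancer cells. The genes were Itgam, Itgax, Itgal, and Itgb2 (subunits αM, αX, αL, and β2), Itga4 and Itgb7 (α4 and β7), Itgb1 (β1), and Itga1, Itga8, and Itga9 (α1, α8, and α9). They were found by symbol and Entrez identifier, and they are 10 of the 27 integrin subunit genes and of the 17058 genes listed in at least 1 library. All 10 passed edgeR's filter on low counts. Itga8 and Itga9 were selected because they were lower in this very comparison, so their values are given as a description and without a test. The other 8 were selected as the leukocyte and matrix subunits of interest with earlier results of these data known.

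The RNA-Seq data comprised 5 libraries of BMDMs from Balb/c mice, 2 made after coculture with WT 4T1 cells and 3 after coculture with Adam17-/- 4T1 cells. The 4T1 line derives from a mouse mammary carcinoma, ADAM17 is a protease that releases membrane-bound growth factors and cytokines from the cell surface, and a porous membrane separated the cancer cells from the macrophages for 48 hours. The deletion was thus made in the 4T1 cells alone, and in the sequenced macrophages Adam17 itself was measured at 198 and 200 CPM in the WT group and at 152, 164, and 161 CPM in the Adam17-/- group. The labels give all 3 Adam17-/- libraries the knock-out designation 2.8, so the deletion and any other trait of this single line cannot be told apart, and they do not say whether repeats came from separate mice or cultures, so that p-values measure only the spread between these samples.

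Integrins are transmembrane heterodimers of an α and a β subunit, and the pairing sets the ligand. β2 pairs with αL, αM, αX, and αD to form the receptors through which myeloid cells bind ICAMs, the complement fragment iC3b, and fibrinogen. β1 pairs with many α subunits, including the collagen receptor α1, the RGD-binding α8, α9, and α4, whereas α4 also pairs with β7. On macrophages, these receptors serve adhesion, phagocytosis, and migration. Integrins bind ligand with high affinity only after talin and kindlins have engaged the tail of the β subunit.

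The libraries held 14658694 to 20788373 counts, and a gene at 3 counts lies at 0.157 to 0.197 CPM (counts scaled to the library total with edgeR's TMM factors). Macrophage markers were abundant, with a summed level of 26220 to 26980 CPM in the WT group and 19080 to 20530 CPM in the Adam17-/- group, and none of the 13 was at 0. The WT libraries differed more from each other (chi-square per degree of freedom 25.7) than the Adam17-/- libraries did (5.22 to 6.32). Among the 12576 genes tested with edgeR's quasi-likelihood test, 16.8% passed a Benjamini-Hochberg adjusted p of 0.05 as lower in the Adam17-/- group and 14.9% as higher. Requiring in addition a log2 fold change of at least 1 in size left 0.867% lower and 3.36% higher. For 1 gene measured in 2 and 3 samples, the smallest p of an exact permutation test is 0.1. Every p-value below therefore rests on a spread shared among genes by the tool that gave it (edgeR, or DESeq2 or limma where named).

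Of the 8 subunits not selected on the comparison, 5 passed as lower (Itgam, Itgb2, Itgb7, Itgb1, and Itga1), 1 passed as higher (Itgax), and 2 did not pass (Itgal and Itga4). Their median log2 fold change was -0.45, compared with 0.01 over all genes tested, and 0 of the 8 reached an absolute log2 fold change of 1. In 5 of the 8, all Adam17-/- libraries lay below both WT libraries, which held for 29.7% of all genes tested, and in 1 of the 8 they lay above both, which held for 28.4%. In these bulk samples, fewer cells of a type and less RNA per cell cannot be told apart. Macrophage markers moved with these subunits: 8 of 13 passed as lower and 0 as higher, with a median log2 fold change of -0.54. Their part in the integrin values was not tested.

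The promoters of 3 members are shown because the members differ in their values below: Itgam fell, Itgax, the next member on the same chromosome and strand, rose, and Itga8 had the lowest log2 fold change of all members. The sequences are the 250 bases before the RefSeq start (GRCm38.p6), read 5′ to 3′ on the strand of the gene. They lie at chr7:128062390-128062639 (plus strand) for Itgam, chr7:128129300-128129549 (plus strand) for Itgax, and chr2:12301945-12302194 (minus strand) for Itga8. Capitals mark matches on either strand to GAGGAA, a core bound by the myeloid factor PU.1, or to TGANTCA, the AP-1 motif.
Itgam: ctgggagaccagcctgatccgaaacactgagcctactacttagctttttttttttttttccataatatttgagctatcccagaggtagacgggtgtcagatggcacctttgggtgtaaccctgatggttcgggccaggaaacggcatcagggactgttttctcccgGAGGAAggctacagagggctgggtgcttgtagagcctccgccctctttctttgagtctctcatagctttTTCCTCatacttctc
Itgax: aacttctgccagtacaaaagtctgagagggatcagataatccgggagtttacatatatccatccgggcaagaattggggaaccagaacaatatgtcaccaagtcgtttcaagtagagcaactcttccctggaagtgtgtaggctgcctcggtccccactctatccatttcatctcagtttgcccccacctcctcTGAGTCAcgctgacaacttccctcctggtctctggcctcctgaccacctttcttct
Itga8: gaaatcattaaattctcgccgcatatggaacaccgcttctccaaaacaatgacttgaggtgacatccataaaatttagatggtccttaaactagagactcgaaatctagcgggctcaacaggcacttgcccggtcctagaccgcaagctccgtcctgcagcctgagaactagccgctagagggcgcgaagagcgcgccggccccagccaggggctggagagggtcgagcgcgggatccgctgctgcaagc
The Itgam window held GAGGAA 84 bases before the start and its reverse complement TTCCTC 15 bases before the start. In the Itgax window, TGAGTCA lay 56 bases before the start, and the Itga8 window held neither motif nor TGTGGT, a core of RUNX factors. Of all 32851 promoter windows of this length, 23.3% held GAGGAA, 14.0% held TGTGGT, and 6.75% held TGANTCA on either strand. Of the 8 members with an entry, Itgb1 held GAGGAA 9 bases before its start, Itga4 held the RUNX core 60 bases before its start, and Itgb7, Itga1, and Itga9 held none of these letters. The RefSeq starts of Itgax, Itga8, Itgb7, and Itga9 lie inside the gene spans that GENCODE gives, far inside for Itga9, so that these windows do not precede the outermost start. The matches are descriptions of sequence and not of binding.

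To place the subunits by level, FPKM values were compared, since they take transcript length into account. Itgam was by far the most abundant member, with a mean of 1453 FPKM ± 129 (SD, n = 2) in the WT group and 1032 FPKM ± 58.1 (SD, n = 3) in the Adam17-/- group. It ranked 22 of 15832 genes with an FPKM in the WT group and 30 of 16641 in the Adam17-/- group. Itgb2 followed at 516 ± 2.41 and 333 ± 18.3 FPKM, and its rank moved from 86 to 167. In descending order, the others had WT means of 139 FPKM (Itgb1), 92.2 FPKM (Itgb7), 52.7 FPKM (Itgal), 28.8 FPKM (Itga1), and 13.1 FPKM (Itga4). The lowest WT means were 7.17 FPKM (Itga9), 5.73 FPKM (Itgax), and 1.58 FPKM (Itga8).

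In the WT group, the order was clear except between Itga9 (6.09 and 8.24 FPKM) and Itgax (4.73 and 6.73 FPKM), whose libraries overlapped. In the Adam17-/- group, Itgax (7.69 to 13.2 FPKM) lay above Itga9 (3.63 to 5.35 FPKM) without overlap, and the order of the other members was the same. Itgam and Itgb2 together made up 84.9% and 85.6% of the summed FPKM of the 10 members in the WT libraries and 82.1% to 82.5% in the Adam17-/- libraries. The summed level of the members was 2214 and 2405 FPKM in the WT group and 1574, 1651, and 1748 FPKM in the Adam17-/- group.

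**Figure D1:**
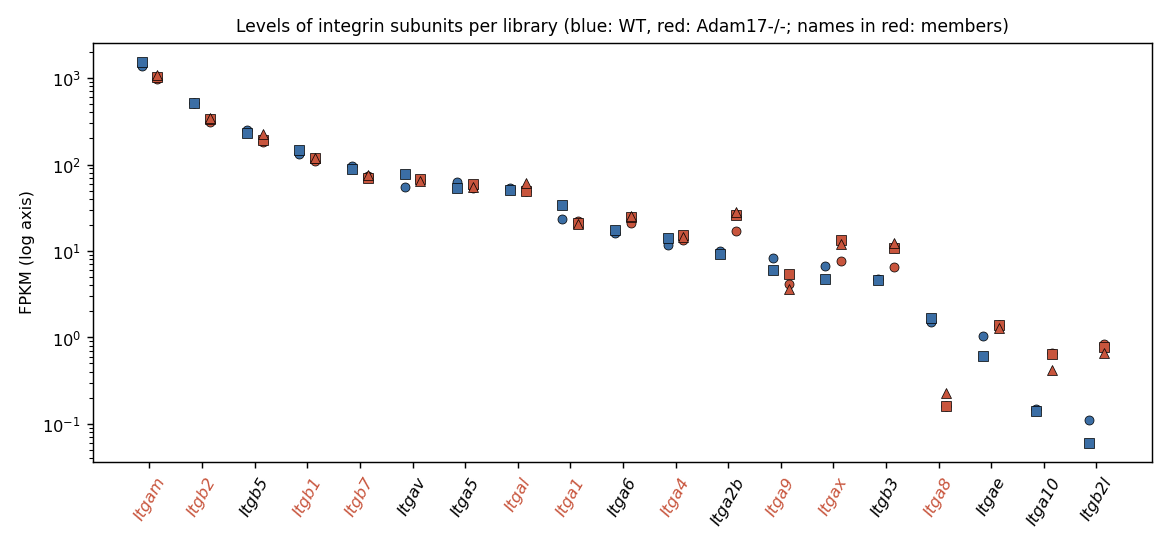
FPKM of each integrin subunit that reached a mean of 0.5 in either group, on a log axis, with 1 point per library (blue, WT; red, Adam17-/-; circle, square, and triangle for replicates 1, 2, and 3; names of the 10 members in red). Itgam leads at 980 to 1544 FPKM, and Itga8 is the member with the widest gap between the groups.

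Within the β2 family, Itgb2 and Itgam were lower and Itgax was higher in the Adam17-/- group, and Itgal did not pass. Itgb2, the shared β chain of the leukocyte integrins (Entrez 16414, GRCm38 chr10:77530329-77565708), was measured at 1577 and 1497 CPM in WT replicates 1 and 2 and at 833, 912, and 939 CPM in Adam17-/- replicates 1, 2, and 3. The groups lay far apart relative to their spread, and the log2 fold change was -0.78 (SE 0.0875, adjusted p = 0.00055 in edgeR). Itgam, the α chain of Mac-1 (CD11b, Entrez 16409, chr7:128062640-128118491), was at 6844 and 7413 CPM in the WT group and at 4316, 4546, and 4877 CPM in the Adam17-/- group. All Adam17-/- libraries were again below both WT libraries, with a log2 fold change of -0.64 (SE 0.0973, adjusted p = 0.00173 in edgeR). Mac-1 is the receptor for iC3b, and the mRNA of both of its chains was therefore lower, to 0.582-fold for Itgb2 and 0.642-fold for Itgam.

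The deposited table splits Itgam into 2 transcripts, and both were lower: the transcript of 4682 bases fell from 2896 ± 56.6 to 1867 ± 144 CPM and the transcript of 4679 bases from 4232 ± 345 to 2713 ± 220 CPM (SD, n = 2 and 3). These values are descriptions, since the transcripts are nearly identical and reads were divided among them by estimation. In the GENCODE annotation, the gene model Gm49368 covers 68.7% of the exon bases of Itgam on the same strand, so that the counts cannot separate the 2 models.

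Itgal, the α chain of the ICAM receptor LFA-1 (Entrez 16408, chr7:127296139-127335137), was at 304 and 275 CPM in the WT group and at 242, 247, and 301 CPM in the Adam17-/- group. The groups overlapped, because Adam17-/- replicate 3 lay near WT replicate 1. The log2 fold change of -0.14 did not pass (SE 0.109, 95% interval -0.38 to 0.11, adjusted p = 0.363 in edgeR), and it was 0.01 with library size as the only scaling, under which the median of all genes moved to 0.16. Measured as FPKM, Itgal was at 52.7 ± 2.14 in the WT group and 53.1 ± 6.42 in the Adam17-/- group. A change of Itgal was thus not detectable with these libraries.

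Itgax, the α chain of p150,95 (CD11c, Entrez 16411, chr7:128129526-128150657), was the only member that passed as higher in edgeR. It was at 29.0 and 19.5 CPM in the WT group and at 29.1, 50.5, and 45.7 CPM in the Adam17-/- group. Adam17-/- replicate 1 lay just above WT replicate 1, and the others lay clearly higher. The log2 fold change was 0.78 (SE 0.231, adjusted p = 0.0298 in edgeR), but it did not pass in DESeq2 (adjusted p = 0.0911) or in edgeR without WT replicate 2 (0.52, adjusted p = 0.0812), without Adam17-/- replicate 2 (0.65, adjusted p = 0.0913), or without Adam17-/- replicate 3 (0.73, adjusted p = 0.0832). Over all alternatives, its adjusted p ranged from 0.00158 to 0.0913. The dendritic cell markers, a list of 10 genes that leaves out Itgax, had a summed level of 15.1 to 22.2 CPM in the WT group and 27.6 to 39.2 CPM in the Adam17-/- group. Of the 7 tested, 3 passed as higher, compared with 14.9% of all genes tested, and none of the 10 markers was at 0 in every library. Their part in the Itgax value was not tested.

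**Figure D2:**
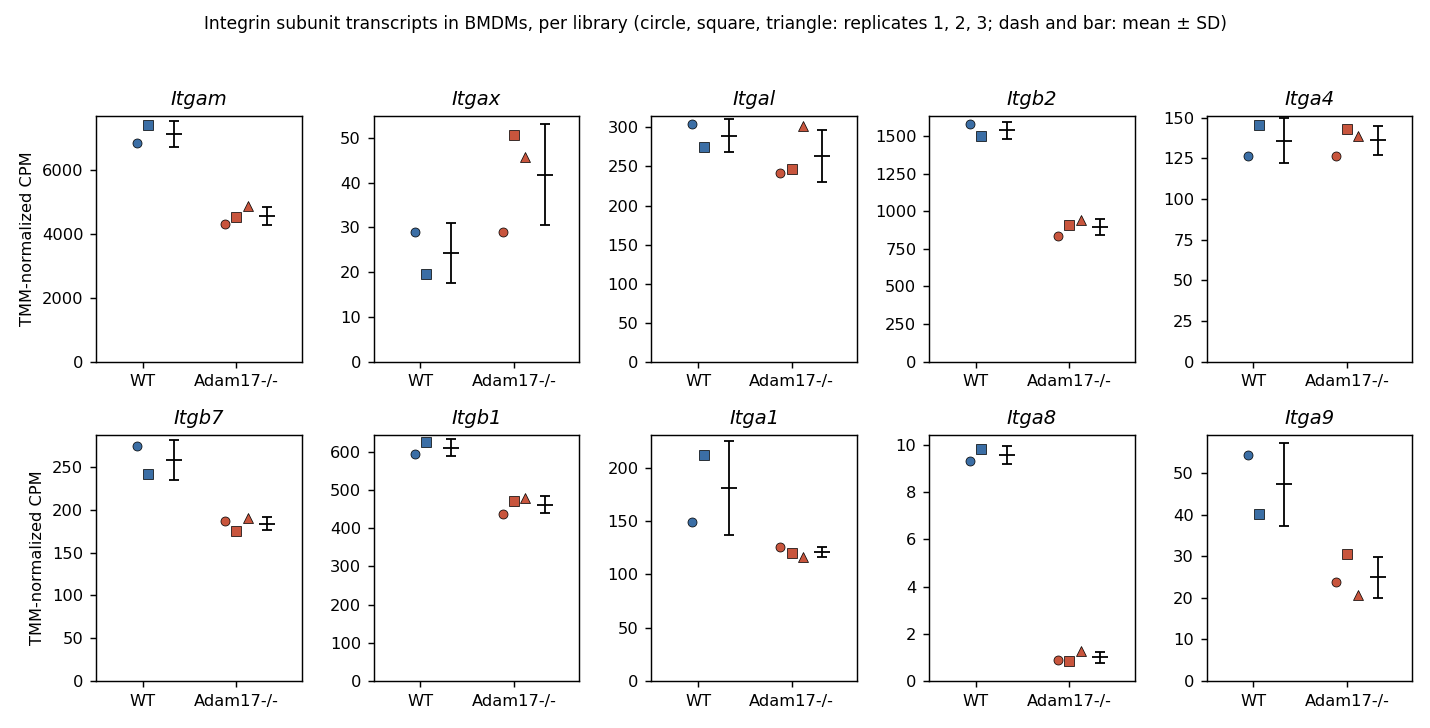
TMM-normalized CPM of each of the 10 members in every library, on linear axes from 0 (blue, WT; red, Adam17-/-; circle, square, and triangle for replicates 1, 2, and 3; the dash and bar show mean ± SD). The groups overlap for Itgal and Itga4, Itgax is higher in the Adam17-/- group by a margin that is narrow for replicate 1, and the other members lie lower in all 3 Adam17-/- libraries.

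To compare the makeup of the β2 family, each α chain that pairs with β2 was expressed as a share of their summed FPKM (Itgam, Itgal, Itgax, and Itgad). The share of Itgam was 95.7% and 96.5% in the WT group and 94.5%, 94.2%, and 93.8% in the Adam17-/- group. That of Itgal was 3.81% and 3.20% compared with 4.73%, 4.58%, and 5.18%, and that of Itgax was 0.473% and 0.296% compared with 0.742%, 1.22%, and 1.03%. The groups did not overlap for these shares, and Itgam remained the main α chain throughout. The FPKM of Itgal itself was nearly equal (means of 52.7 in the WT group and 53.1 in the Adam17-/- group). Its higher share therefore reflects the lower Itgam in the sum and not a gain of Itgal. The α sum per Itgb2 was 2.75 and 3.11 in the WT group and 3.32, 3.21, and 3.36 in the Adam17-/- group. These ratios concern mRNA, and no protein was measured in these libraries.

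Neutrophils also carry Mac-1, and their markers moved in the direction opposite to Itgam and Itgb2. The summed level of 12 neutrophil markers was 1391 and 1408 CPM in the WT group and 2287 to 2579 CPM in the Adam17-/- group. Of the 12, 10 passed as higher, compared with 14.9% of all genes tested, and none was at 0. Camp, 1 of the 10, reached the count filter through the Adam17-/- libraries only, so no weight is placed on its pass. Mmp8, the largest of the 12 in the WT group, had means of 970 (WT) and 1068 CPM (Adam17-/-) and did not pass. The part of neutrophils in the values of the β2 family was not tested.

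The α4 and β7 chains form the receptor for MAdCAM-1 and VCAM-1, and Itgb7 was lower while Itga4 did not pass. Itga4 (Entrez 16401, chr2:79255426-79333114) was at 126 and 146 CPM in the WT group and at 126, 143, and 138 CPM in the Adam17-/- group. The groups overlapped in full, and the log2 fold change of 0.00 did not pass (SE 0.0949, 95% interval -0.21 to 0.21, adjusted p = 0.992 in edgeR). Its sign is without meaning, since it turned to -0.10 without WT replicate 1. In the annotation, exons of Cerkl on the opposite strand overlap 8.04% of the exon bases of Itga4.

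Itgb7 (Entrez 16421, chr15:102215994-102233405) was at 275 and 242 CPM in the WT group and at 186, 176, and 190 CPM in the Adam17-/- group. All Adam17-/- libraries were lower, with a log2 fold change of -0.49 (SE 0.0863, adjusted p = 0.00339 in edgeR). Per length, Itgb7 was above Itga4 in every library, by a ratio of FPKM of 8.10 and 6.17 in the WT group and 5.49, 4.57, and 5.10 in the Adam17-/- group. The other α partner of β7, Itgae, was at a mean of 3.31 and 4.96 CPM in the WT and Adam17-/- groups and did not pass in edgeR. Summed markers of lymphocytes, the cells in which α4β7 and αEβ7 are best known, were at 4.65 to 7.96 CPM in the WT group and 7.22 to 9.14 CPM in the Adam17-/- group. Of these 12 markers, Cd3g was at 0 in every library and 0 of the 3 tested passed. Cd79a, 1 of the 3, reached the count filter through the Adam17-/- libraries only.

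Among the matrix receptors, Itgb1 and its collagen-binding partner Itga1 were lower in the Adam17-/- group. Itgb1 (Entrez 16412, chr8:128685654-128733579) was at 596 and 628 CPM in the WT group and at 438, 471, and 479 CPM in the Adam17-/- group. The groups did not overlap and the log2 fold change was -0.40 (SE 0.0818, adjusted p = 0.00621 in edgeR). The adjusted p ranged from 0.000193 to 0.0564 over the alternatives, the highest coming without Adam17-/- replicate 1 (log2 fold change -0.35).

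Itga1 (Entrez 109700, chr13:114958079-115101964) was at 149 and 212 CPM in the WT group and at 126, 120, and 117 CPM in the Adam17-/- group. The Adam17-/- libraries were close to one another and below both WT libraries, whereas the WT libraries differed widely. The log2 fold change was -0.58 (SE 0.130, adjusted p = 0.0093 in edgeR), but its size depended on WT replicate 2, without which it was -0.31. It also no longer passed in edgeR without Adam17-/- replicate 2 or replicate 3 (adjusted p = 0.0508 and 0.0528) or in limma on log2(FPKM + 0.1) and log2(FPKM + 1), where 0.0714 and 0.0751 were the adjusted p-values. Its adjusted p ranged from 1.78e-05 to 0.0751 over the alternatives.

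The summed FPKM of the α chains that pair with β1 (Itga1 to Itga11 and Itgav) overlapped between the groups, at 179 and 206 FPKM after WT coculture and 182, 196, and 186 FPKM after Adam17-/- coculture. Some of these chains also pair with other β chains, as α4 does with β7, so the sum is not of partners of β1 alone. Itgb1 per unit of this sum was 0.741 and 0.709 in the WT group and 0.612, 0.603, and 0.647 in the Adam17-/- group, so that the β1 mRNA was lower relative to the sum of its partners. Of that sum, Itga5 and Itgav together held 63.9% to 65.7% in every library. Itga1 held 12.9% and 16.7% in the WT group and 10.7% to 12.2% in the Adam17-/- group. The level of Itgb2 relative to Itgb1 was 3.91 and 3.52 by FPKM in the WT group and 2.81, 2.86, and 2.90 in the Adam17-/- group.

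Itga8 and Itga9 were selected for their decrease, and their values serve as a description. Itga8, the α chain of the receptor for nephronectin and other RGD proteins (Entrez 241226, chr2:12106632-12301985), was covered by 178 and 182 counts in WT replicates 1 and 2 and by 16, 13, and 24 counts in Adam17-/- replicates 1, 2, and 3. These correspond to 9.32 and 9.85 CPM compared with 0.876, 0.855, and 1.27 CPM, and all libraries lay above the floor of 3 counts. The fitted log2 fold change was -3.24, to 0.106-fold, and 3 of the 12576 genes tested had a smaller value. On the log2(FPKM + 1) scale, the difference was -1.12, and on the log2(FPKM + 0.1) scale it was -2.58, where the pseudocount weighs on a gene with a WT mean of 1.58 FPKM.

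Even in the WT group, Itga8 was a minor chain, with 0.839% and 0.805% of the summed α partners of β1. In the Adam17-/- group this share was 0.0882%, 0.0817%, and 0.124%. α8 is best known from smooth muscle and other mesenchymal cells. The summed level of 11 fibroblast and smooth muscle markers was 43.5 and 53.4 CPM in the WT group and 53.6, 77.1, and 134.5 CPM in the Adam17-/- group. Of the 7 markers tested, 2 passed as higher and 0 as lower, compared with 14.9% and 16.8% of all genes tested. Pdgfra, 1 of the 7, reached the count filter through the Adam17-/- libraries only and did not pass. Lum, Myh11, and Des had 3 counts or fewer in every library. The libraries were uneven in this list: Col1a1 was at 17.1 and 14.8 CPM in the WT group and at 11.5, 23.2, and 66.3 CPM in the Adam17-/- group, so that Adam17-/- replicate 1 lay lowest and replicate 3 highest. The part of these cells in the Itga8 value was not tested. In the annotation, the antisense gene E030013I19Rik shares 5.05% of the exon bases of Itga8, and whether counting used strand is not given in the sources used here.

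Itga9, the α chain of a receptor for tenascin-C, osteopontin, and VCAM-1 (Entrez 104099, chr9:118606709-118901003), was at 54.3 and 40.2 CPM in the WT group and at 23.7, 30.4, and 20.7 CPM in the Adam17-/- group. The libraries did not overlap. The fitted log2 fold change was -0.93, and 169 of the genes tested had a smaller value. It ranged from -1.13 (without WT replicate 2) to -0.70 (without WT replicate 1) when a library was left out, and it was -0.60 on the log2(FPKM + 1) scale.

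The deposited table lists 2 transcripts of Itga9. The transcript of 7001 bases was at 31.9 and 29.7 CPM in the WT group and at 12.9, 15.03, and 10.3 CPM in the Adam17-/- group, without overlap. The transcript of 5180 bases was at 22.4 and 10.5 CPM compared with 10.8, 15.4, and 10.4 CPM, and the groups overlapped. The longer transcript held 51.2% and 67.5% of the gene's FPKM in the WT group and 46.9%, 41.9%, and 42.2% in the Adam17-/- group. Since reads shared by the transcripts were divided by estimation, the split is less certain than the gene's sum.

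**Figure D3:**
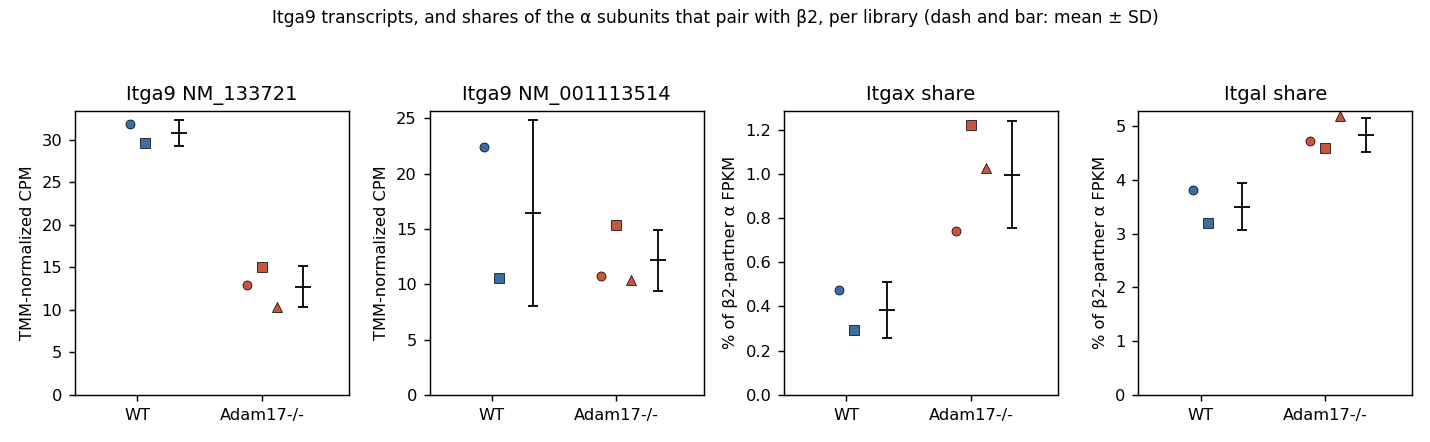
Left panels, TMM-normalized CPM of the Itga9 transcripts of 7001 bases (NM_133721) and 5180 bases (NM_001113514) per library; right panels, Itgax and Itgal as a percentage of the summed FPKM of the α chains that pair with β2 (blue, WT; red, Adam17-/-; dash and bar, mean ± SD; all axes start at 0). The longer Itga9 transcript is lower in every Adam17-/- library, the shorter one overlaps, and both shares are higher in every Adam17-/- library. For Itgal, the share is higher because the sum is lower, not because its own FPKM rose.

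To see which genes had a pattern most like that of a member, the Euclidean distance between centered log2 CPM values was taken over the 5 libraries. The nearest genes to Itga8 were Ch25h (distance 0.564), which encodes cholesterol 25-hydroxylase, Ccnd1 (0.960), which encodes cyclin D1, and Nid2 (1.04), which encodes the basement membrane protein nidogen-2. For Itgam they were Endod1 (0.0558), App (0.0580), and Abcc4 (0.0806). The distances of Itga8 were larger than those listed for any other member. Itga1 was nearest to Ccl9 (0.125) and Maf (0.126), Itga9 to Slco2b1 (0.126), Itgb7 to Crtap (0.0204), and Itgb1 to Pigk (0.0279).

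The other 17 integrin subunits were examined for comparison. Of these, 16 had a count, Itgb6 was at 0 in every library, and 12 were tested. Of these 12, 1 passed as lower, and Itga2b, Itgb3, Itga6, and Itga10 passed as higher. However, 3 of the 12 (Itga7, Itgad, and Itgb2l) reached the count filter through the Adam17-/- libraries only. Therefore, Itgb2l is not counted as passing here, and no median or share is given for the list. The single lower subunit was Itgb5, the β chain of a vitronectin receptor, which fell from 829 to 622 CPM (log2 fold change -0.42, adjusted p = 0.0176 in edgeR). None of the 17 passed as lower (0 of those tested) with library size as the only scaling, in limma on either FPKM scale, or in edgeR without Adam17-/- replicate 1 or without Adam17-/- replicate 2.

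Itga2b and Itgb3, which together form the platelet fibrinogen receptor, were higher. Itga2b was at 36.6 and 32.5 CPM in the WT group and 54.8, 84.9, and 91.5 CPM in the Adam17-/- group (log2 fold change 1.16, adjusted p = 0.00266 in edgeR). Itgb3 was at 29.3 and 27.5 CPM compared with 35.4, 60.5, and 68.4 CPM (log2 fold change 0.95, adjusted p = 0.0135). Both belong to the list of 11 megakaryocyte markers, and none of these was at 0. Of the 11, 8 passed as higher and 2, Pf4 and Ppbp, as lower, compared with 14.9% and 16.8% of all genes tested. Pf4 fell from a mean of 2041 to 976 CPM, and the summed level of the list was 2250 and 2383 CPM in the WT group and 1179 to 1345 CPM in the Adam17-/- group. Its part in these values was not tested.

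Itga6, a laminin receptor chain, rose to a small extent, from a mean of 108 to 136 CPM (log2 fold change 0.34, adjusted p = 0.0270 in edgeR). Itgb2l, a close homolog of Itgb2, had 6 and 3 counts in the WT group and 38, 29, and 31 counts in the Adam17-/- group (log2 fold change 2.93). It passed the filter on low counts through the Adam17-/- libraries alone, so no p is given, and with at least 10 counts required in every library the count of higher subunits was 4. Itga10, a collagen receptor chain, had 16 and 13 counts compared with 57, 47, and 38 counts (log2 fold change 1.81, adjusted p = 0.00336). The abundant partners Itgav (log2 fold change -0.13, 95% interval -0.40 to 0.14) and Itga5 (-0.20, 95% interval -0.43 to 0.03) did not pass.

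**Figure D4:**
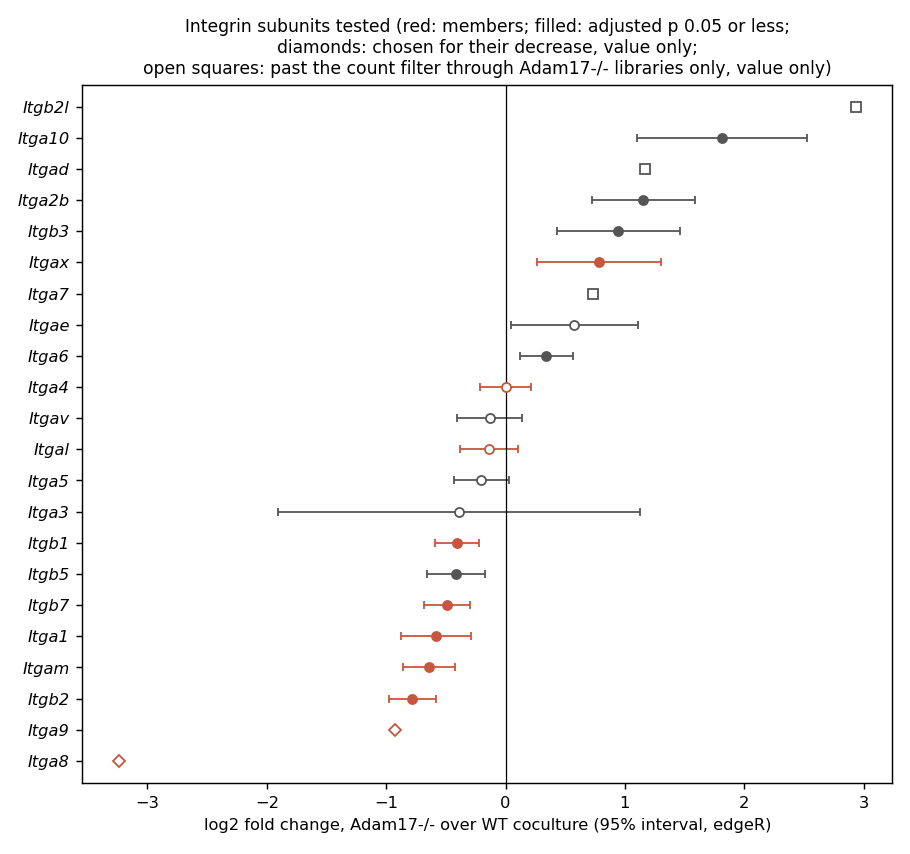
Log2 fold change of every integrin subunit tested, Adam17-/- over WT coculture, with its 95% interval from edgeR (red, members; gray, other subunits; filled, adjusted p of 0.05 or less; open diamonds, Itga8 and Itga9, which were selected for their decrease and are shown without an interval; open squares, Itga7, Itgad, and Itgb2l, which reached the count filter through the Adam17-/- libraries only, likewise). Members lie between -3.24 and 0.78, and the other subunits between -0.42 and 2.93.

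Integrins act through cytoplasmic adaptors, and 38 of 40 genes for integrin activation and adhesion were tested. Of these, 13 passed as lower and 2 as higher, and over all genes tested 16.8% and 14.9% did so. However, 4 of the 38 (Fermt2, Kif14, Lims2, and Parva), none of which passed, reached the count filter through the Adam17-/- libraries only. Therefore, no median or share is given for this list. Tln1, which encodes the β-tail binder talin-1, was at 1501 and 1362 CPM in the WT group and at 824, 871, and 879 CPM in the Adam17-/- group (log2 fold change -0.74, adjusted p = 0.000598 in edgeR). Fermt3, which encodes the hematopoietic kindlin-3, was at 489 and 391 CPM compared with 271, 264, and 298 CPM (log2 fold change -0.66, adjusted p = 0.00217). Both of these activators of β2 and β1 integrins were lower in every Adam17-/- library.

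The actin cross-linkers Actn4 (log2 fold change -0.77, adjusted p = 0.000579 in edgeR) and Flna (-0.69, adjusted p = 0.00065) and the adaptor Tns3 (-0.53, adjusted p = 0.00274) were also lower. Upstream of talin, the decrease of Apbb1ip, which encodes the Rap1 effector RIAM, was smaller (-0.27, adjusted p = 0.0265). Rap1b itself, which encodes the small GTPase, had a log2 fold change of -0.04 (95% interval -0.39 to 0.31) and did not pass. The 2 higher genes were Parvg (0.50, adjusted p = 0.0181), which encodes γ-parvin, and Src (0.41, adjusted p = 0.00537), the kinase. The number of lower genes depended on the scaling and on the libraries: it was 7 with library size as the only scaling and 6 to 17 when a library was left out.

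**Figure D5:**
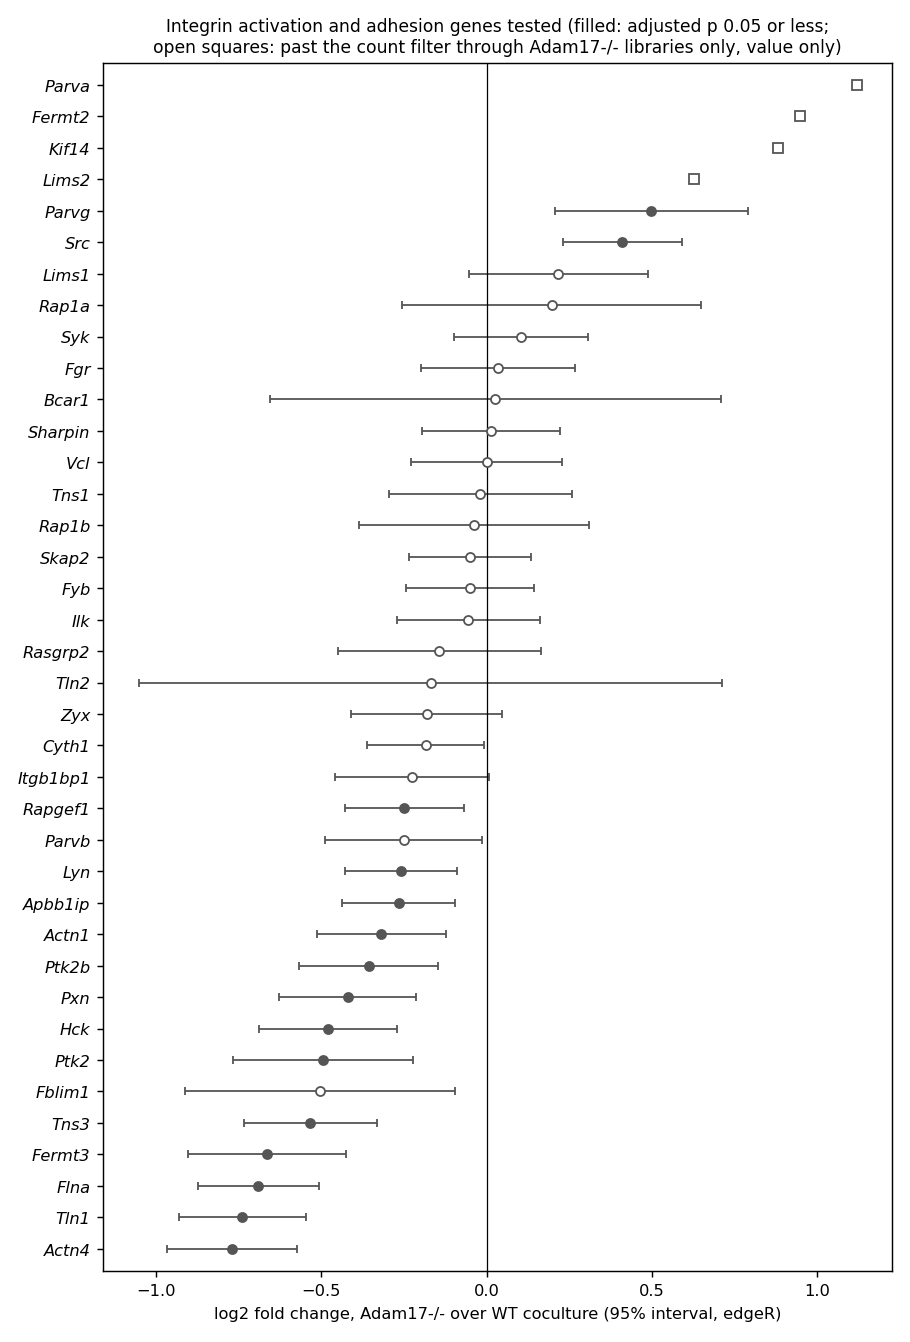
Log2 fold change of the 38 tested integrin activation and adhesion genes, Adam17-/- over WT coculture, with its 95% interval from edgeR (filled, adjusted p of 0.05 or less; open, not passed; open squares without an interval, 4 genes that reached the count filter through the Adam17-/- libraries only). Actn4, Tln1, Flna, and Fermt3 have the smallest values, and Src and Parvg are the only filled points to the right of 0.

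Transcripts of some integrin ligands were present in the same libraries. Of 30 ligand genes, 27 had a count and 19 were tested, of which 5 (26.3%) passed as lower and 3 (15.8%) as higher, with a median log2 fold change of 0.14. Over all genes tested these shares were 16.8% and 14.9%, so that the share of higher ligands was near that of all genes. Fn1, which encodes fibronectin, was at 2855 and 3946 CPM in the WT group and at 1956, 1419, and 2180 CPM in the Adam17-/- group (log2 fold change -0.88, adjusted p = 0.00676 in edgeR). C3, the source of the Mac-1 ligand iC3b, was at 1022 and 975 CPM compared with 652, 678, and 678 CPM (-0.58, adjusted p = 0.00114). Tgfb1, whose latent form binds αv integrins and α8β1, had the lowest log2 fold change of the list (-0.97, adjusted p = 0.000835).

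Emilin1 (-0.49, adjusted p = 0.00874 in edgeR), a ligand of α4β1 and α9β1, and Thbs1 (-0.39, adjusted p = 0.0258), which encodes thrombospondin-1, were lower as well. The higher ligands were Jam2 (1.73, adjusted p = 0.00148), which encodes a junctional molecule that binds α4β1, Col3a1 (1.58, adjusted p = 0.00637), which encodes a fibrillar collagen, and Vegfa (0.50, adjusted p = 0.00741). Col3a1 also belongs to the list of fibroblast markers described for Itga8. Icam1, the ligand of αL and αM, had a log2 fold change of -0.22 (95% interval -0.51 to 0.08), and Vcam1, the ligand of α4 and α9, had one of 0.43 (95% interval -0.68 to 1.55). Neither passed. Npnt, which encodes the α8 ligand nephronectin, had 5 and 2 counts in WT replicates 1 and 2 and 0 in the Adam17-/- replicates, too few to be tested.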

How the data were processed

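RNA-Seq was performed on 5 BMDM libraries, grouped by their labels. The study's methods name HISAT and Bowtie2 with GRCm38, and the submitters' processing notes name Bowtie2 and RSEM with mm10, the same assembly. Versions are not given in the sources used here. For each transcript, the authors deposited an unnormalized expected count and an FPKM value, normalized to length and depth. Between 48.3% and 49.3% of transcript counts per library were not whole numbers.

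Expected counts were summed per Entrez gene, rounded to whole numbers, and fitted in R 4.3.3 by edgeR 4.0.16 (TMM, filterByExpr, and the two-sided quasi-likelihood test of glmQLFTest), with Benjamini-Hochberg adjustment over 12576 genes. Intervals are 95% intervals of the fit. FPKM was summed per gene and served for levels, ratios, and the limma alternatives. Symbols and promoters were from RefSeq (GRCm38.p6), and coordinates and exon overlaps from GENCODE (GRCm38). Of 17058 genes, 17015 had a symbol. Also used were matplotlib 3.10.9, pandas 2.3.3, Python 3.11.15, DESeq2 1.42.0, and limma 3.58.1.

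The members and lists were chosen with earlier results of these data known. Named beside the 10 members were other subunits that passed or had a mean of at least 5 FPKM, the 6 largest changes among adhesion genes with at least 10 CPM and 4 activators (Tln1, Fermt3, Rap1b, and Apbb1ip), ligands that passed with at least 1 CPM, and the 3 nearest genes per member, of which some are not reported here. Src, Itgae, Icam1, Vcam1, and Npnt were named after their values were seen. Alternatives were other scalings, filters, tools, and thresholds, FPKM fits with limma, a replicate block, and each replicate left out.

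The 12 markers of mast cells, basophils, and eosinophils summed to 7.09 and 11.7 CPM in the WT group and 16.5 to 26.4 CPM in the Adam17-/- group. Of the 5 tested, Epx and Kit reached the count filter through the Adam17-/- libraries only, so no count of passing markers is given. Among the others, Hdc passed as higher, and Prg2 and Gata2 did not pass. Epithelial markers summed to 11.5 and 13.3 compared with 12.0 to 14.3 CPM, and endothelial markers to 163 and 194 compared with 155 to 203 CPM. Krt5 and Tpsb2 were at 0 in every library.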

Additional observations from a re-analysis of the deposited data

How the results depend on the processing

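Of 140 values of the 10 members under 14 alternatives each, 6 reversed and 9 no longer passed. Another 3, of Itga8 and Itga9, which have no test, moved beyond the spread of replicates. The other 122 kept their direction and, where tested, their side of the threshold, though not always their size. Itgal was at 0.0117 (library size only) and 0.0050 (limma on both FPKM scales), and Itga4 at -0.0106 (replicate block), -0.1029 (without WT replicate 1), and -0.0201 (without Adam17-/- replicate 2). Scaling by library size only moved the median of all genes to 0.16, and limma on log2(FPKM + 0.1) and log2(FPKM + 1) to 0.15 and 0.11. The cause of the changes was not tested.

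The count of lower members (5) was 0 with an absolute log2 fold change of 1 and 1 at an adjusted p under 0.001 with a change over 0.25. It was 4 in both FPKM fits, in which Itga1 did not pass. The count of higher members (1) was 0 in DESeq2 and at both stricter thresholds. Leaving out a replicate gave 4 to 5 lower and 0 to 1 higher. For other subunits, the lower count (1) was 0 in both FPKM fits, with library size only, and at both thresholds (0 to 2 leaving out a replicate). Their higher count (5, with Itgb2l included) was 3 and 0 at the thresholds (4 to 5 leaving out an Adam17-/- replicate). For adhesion genes, the lower count (13) was 7 in both FPKM fits and with library size only, and 0 and 3 at the thresholds (6 to 17), and the higher count (2) was 0 and 0 (1 to 5). For ligands, the lower count (5) was 0 and 1 (3 to 5), and the higher count (3) was 0 at the strictest threshold (3 to 5, with 5 without Adam17-/- replicate 1).

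With the replicate block, 5 members were lower and 1 higher, and 7 adhesion genes were lower and 1 higher. The groups share only 2 numbers, and the labels do not say whether equal numbers mark a shared origin. Same-numbered samples did not deviate together (r = -0.124 and -0.0504). With 2 WT libraries, the deviations from their mean mirror each other, so these values cannot decide whether the samples are paired. Over all genes, 2114 lower and 1869 higher became 1126 and 1216 with the block and 1077 and 3019 with library size only. A left-out WT replicate leaves a single WT library, which is then assumed to vary like the others. Depth limits Itgb2l and Itga10, with under 20 counts in the WT libraries.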
